A study of Mus musculus with 405 samples.

Results

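The 4 libraries of cortical cultures exposed to the fungicide pyraclostrobin and the 4 libraries of vehicle cultures that the study deposited with them as a table of counts are described here, in a series of 405 samples. They were chosen by the 8 columns of that table, and all of its genes with a level were used. The labels of 3 vehicle samples name this table, so which vehicle sample each of the 4 vehicle columns holds is not known. The cultures were prepared from the cortex of mouse embryos (C57BL/6J mothers and CAST/EiJ fathers, by the study's methods) of embryonic day 15 by the labels, where the methods give an earlier day, treated with an antimitotic agent early in culture, and exposed from day 7 in vitro for 24 h to 0.1 μM pyraclostrobin or to the vehicle, dimethyl sulfoxide, which all 8 cultures received. Polyadenylated RNA was sequenced, and reads were counted over the exons of each gene. The study describes such cultures as rich in neurons with a minority of other cells. The labels do not show that each library came from a culture of its own, and the study gives fewer biological replicates than libraries for this experiment, so p-values measure the spread between libraries, part of which may be technical.

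Pyraclostrobin belongs to the strobilurins, which occupy the quinone outside (Qo) site of the cytochrome bc1 complex, complex III of the mitochondrial respiratory chain. Complex III passes electrons from ubiquinol to cytochrome c and pumps protons as it does so, and inhibitors of the Qo site stop this transfer and can raise the formation of superoxide. Neurons depend on respiration for most of their ATP. Cells in which respiration fails are known to engage the integrated stress response, in which the transcription factor ATF4 raises genes of amino acid synthesis and transport, and oxidants release the transcription factor NRF2 from its inhibitor KEAP1.

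Total counts lay between 2409623 and 7833440, with vehicle libraries Nseq703 and Nseq704 the deepest at 7833440 and 7082405 and the other 6 between 2409623 and 2893598. Levels are given as CPM, counts scaled to a common library total after TMM normalization, and values of 4 libraries are given in the order Nseq428, Nseq702, Nseq703 and Nseq704, the numbers in the headers of the table. Library Nseq428 stood apart in both groups: the Spearman correlation across genes of vehicle library Nseq428 with the other vehicle libraries was 0.935 to 0.943, against 0.988 to 0.994 among vehicle libraries Nseq702, Nseq703 and Nseq704, and in the exposed group it was 0.952 to 0.961 against 0.979 to 0.982. The labels give the name Nseq428 to 1 exposed library, in the form used across the chemical screen. They call the others replicates without these names. By the study's methods the screened chemicals were donated, whereas pyraclostrobin for replication experiments was purchased. Which stock each exposed library received is not stated. Results are therefore also given for libraries Nseq702, Nseq703 and Nseq704 alone and for the pair Nseq428, which has no replicate.

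Exposure to pyraclostrobin went with lower levels of neuronal, synaptic, tubulin and cholesterol synthesis genes and with higher levels of contractile, matrix, p53, ATF4, NRF2, microglial and cell cycle genes. Of 12324 genes that reached 10 counts in 4 or more libraries, 2631 (21.3%) passed an adjusted p of 0.01 in edgeR's quasi-likelihood test with Benjamini-Hochberg adjustment: 1495 (12.1%) were higher and 1136 (9.22%) lower with pyraclostrobin. The median log2 fold change over all genes tested was -0.002. Rises were larger than falls: 1192 of the 1495 higher genes and 414 of the 1136 lower genes changed more than 2-fold, and 518 and 27 changed more than 4-fold. The levels of the groups did not overlap for 4332 genes (35.2%). With libraries Nseq702, Nseq703 and Nseq704 alone, 4870 genes (39.5%) were called, 2448 (19.9%) higher and 2422 (19.7%) lower, among them 2626 of the 2631, all in the same direction. Leaving out another pair lowered the number, to 1250 without pair Nseq702, 750 without pair Nseq703 and 1374 without pair Nseq704. Counts of most lists are therefore given with their range over all 8 single libraries and all 4 pairs left out. Each count is to be set beside the shares of all genes called, 12.1% higher and 9.22% lower. Those shares changed with level, as described below, and the share called lower was larger among abundant genes. Scaling to library totals alone moved the median of all genes to 0.149 and gave 1855 higher and 706 lower genes. The share higher among those called was then 72.4%, against 56.8% with TMM. That share was 50.2% without a filter on counts and 47.4% (1616 higher, 1796 lower) with length and GC trends removed.

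**Figure D1:**
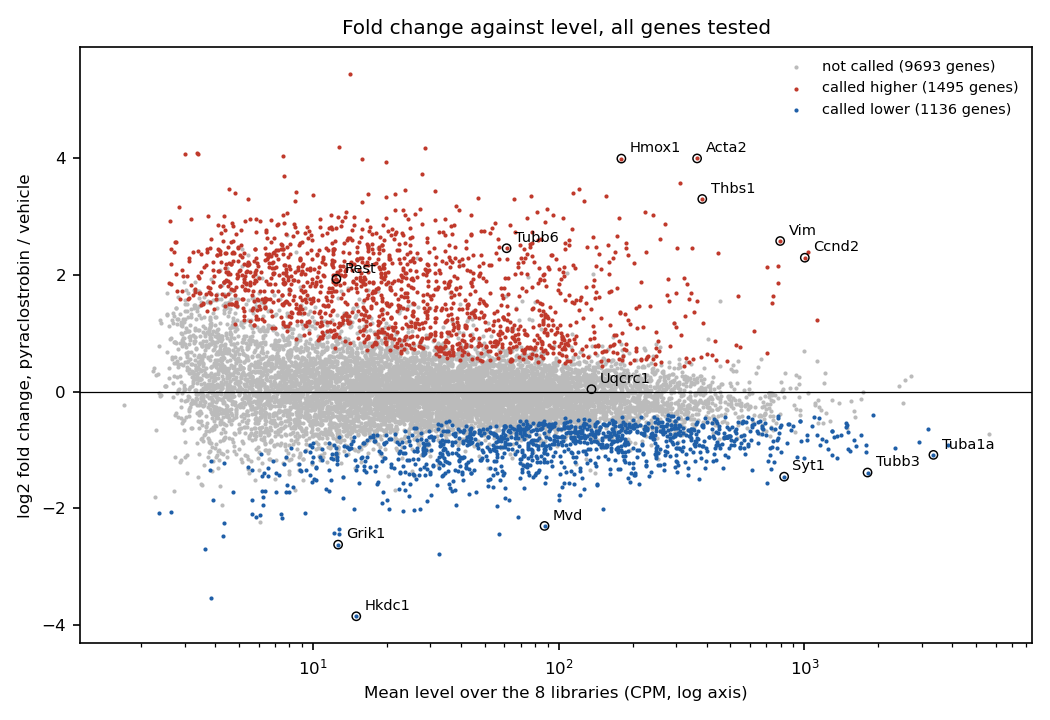
Log2 fold change between 4 pyraclostrobin and 4 vehicle libraries (vertical axis) against mean CPM over the 8 libraries (horizontal, log axis) for 12324 genes, with the 1495 genes called higher in red and the 1136 called lower in blue. Red points dominate at low levels and reach beyond a log2 fold change of 4, while blue points dominate at high levels and mostly stay above -2.

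Direction was related to level. Among the 3081 genes with the lowest mean level (1.70 to 12.6 CPM), 15.8% were called higher and 2.47% lower, whereas among the 3081 genes with the highest level (83.4 to 5626 CPM) 8.34% were higher and 20.4% lower. The counting precision differs along this axis, so the shares among genes of low level are limited by depth. Among the most abundant genes that fell were *Tuba1a* and *Tubb5* (tubulins), *Mapt* (tau) and *Ywhag* (a 14-3-3 protein). *Tuba1a*, an α-tubulin, was at 5953, 3932, 4278 and 4044 CPM in vehicle libraries and at 2236, 2114, 2131 and 2113 CPM with pyraclostrobin, a log2 fold change of -1.08 (SE 0.13, edgeR adjusted p = 0.000162). All 4 exposed libraries lay below every vehicle library. *Tubb5* fell by 0.65 on the log2 scale, *Mapt* by 0.86 and *Ywhag* by 0.97. The most abundant genes that rose were *Pea15a* (an adaptor abundant in astrocytes, log2 fold change 1.23), *Igfbp2* (an insulin-like growth factor binding protein, 2.38), *Ccnd2* (cyclin D2, 2.29), *Vim* (vimentin, 2.58) and *Flna* (filamin A, 1.86).

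Among genes with a mean of at least 50 counts, *Acta2* and *Hmox1*, described with their groups, were among the 12 largest rises, both with a log2 fold change of 3.99. *Palld* (3.94) and *Flnc* (3.72), an actin-binding protein and filamin C, were also among them. Others were *Tagln*, *Hspg2* (perlecan, 3.46), *Lrp2* (megalin, 3.46), *Anxa3* (annexin A3, 3.43), *Ahnak* (3.39), *S100a6* (a calcium-binding protein, 3.38) and *Csf1* (macrophage colony-stimulating factor, 3.35).

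The largest fall was that of *Hkdc1*, a hexokinase domain protein, at 26, 32.7, 26.6 and 27.2 CPM in vehicle libraries. It had no count in exposed libraries Nseq428, Nseq703 and Nseq704 and 20 counts (7.51 CPM) in exposed library Nseq702, so that the log2 fold change of -3.85 (SE 0.74, edgeR adjusted p = 0.00220) was set by a single library, and it became -9.78 without that library, a value that depends on the prior count. The call was lost in DESeq2 (adjusted p = 0.0886). The neurexophilins *Nxph2* and *Nxph1*, secreted ligands of α-neurexins, fell by 2.78 and 2.44 on the log2 scale. The kainate receptor subunit gene *Grik1* fell by 2.62, the growth factor gene *Fgf10* by 2.44, the calcium channel gene *Trpv6* by 2.43, and the sodium pump modulator *Fxyd7* by 2.34. *Mvd*, *Bnip3*, *Cntnap4* and *Cntn6*, described with their groups, were also among the 12 largest falls.

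**Figure D2:**
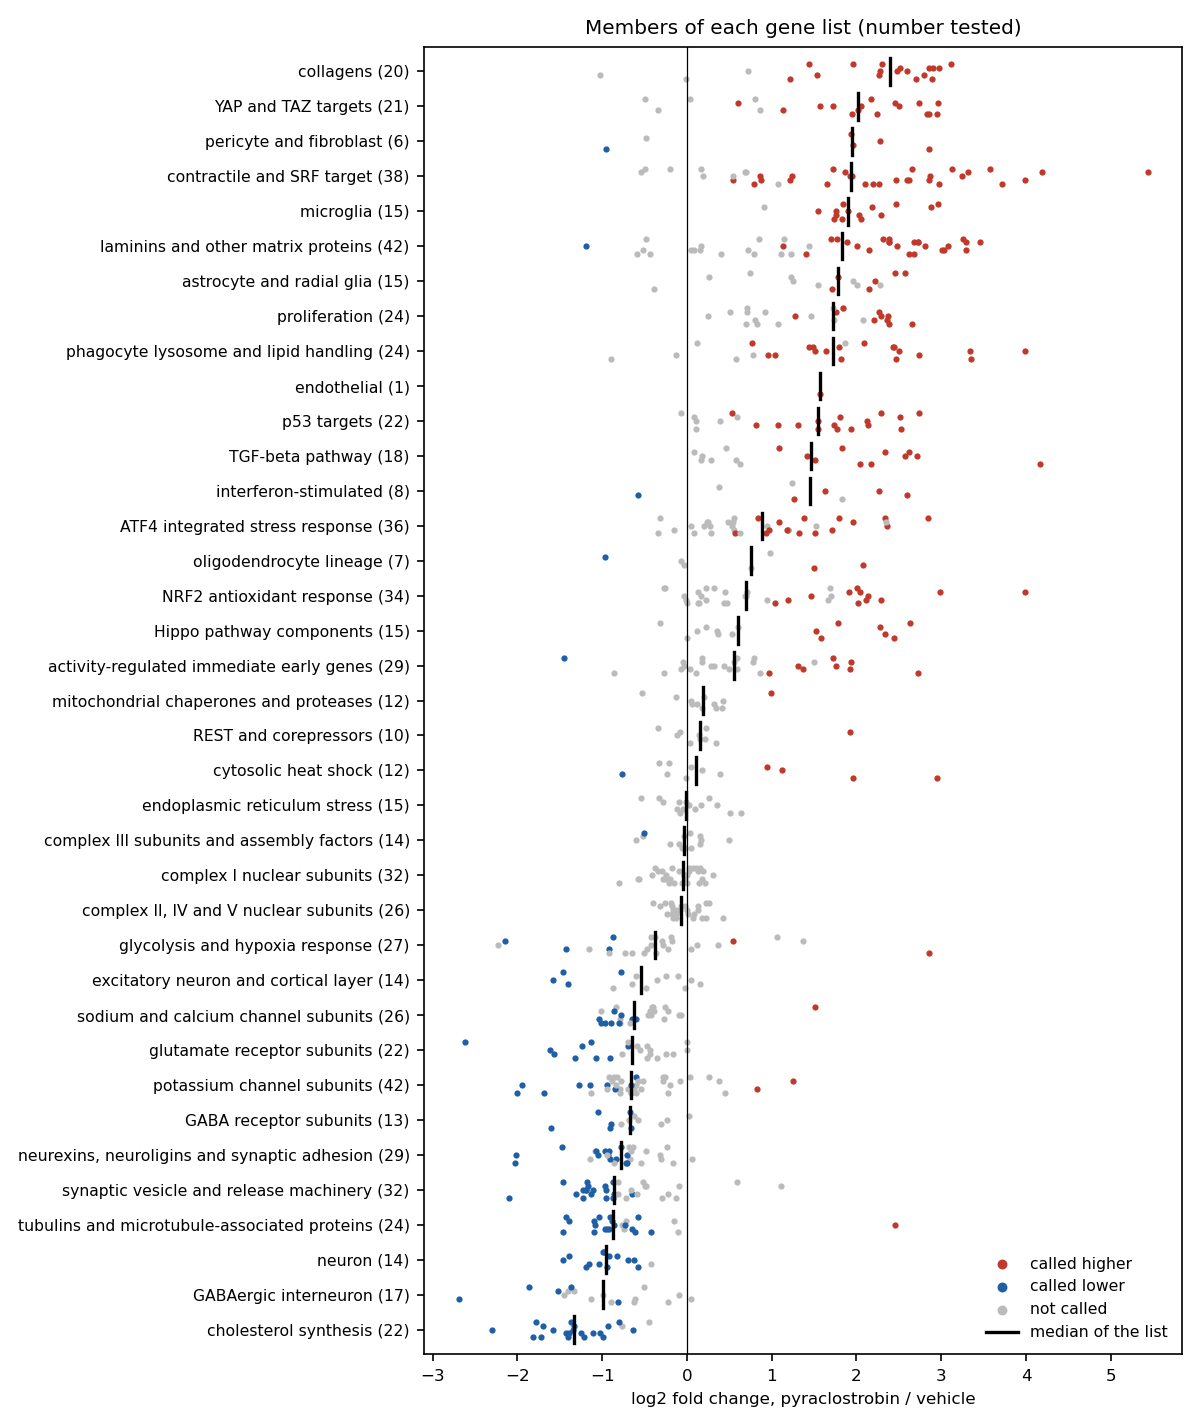
Log2 fold change (horizontal axis) of each tested member of 37 gene lists, ordered by the list's median, which is drawn as a black bar; red and blue points passed the threshold. The collagens had the highest median, 2.39, and the cholesterol synthesis genes the lowest, -1.34, with the respiratory chain lists near 0.

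No tested subunit of the respiratory chain passed the test. Of 14 genes of complex III subunits and assembly factors tested, 0 rose and 1 fell with a median log2 fold change of -0.03. *Uqcrc1*, a core subunit of complex III, was at 207, 110, 111 and 110 CPM in vehicle and 151, 138, 126 and 135 CPM in exposed libraries (log2 fold change 0.04, SE 0.21, edgeR adjusted p = 0.897). The gene that fell, *Ttc19*, encodes a factor needed for turnover of the Rieske protein in complex III. It was at 81, 91.5, 84.2 and 89.9 CPM against 55.7, 68.4, 54.8 and 65.2 CPM (log2 fold change -0.51, SE 0.12, edgeR adjusted p = 0.00854), and this call was lost without any 1 of 6 of the 8 libraries. Of complex I, 0 of 32 nuclear subunits were called (median -0.05), and of complexes II, IV and V 0 of 26 (median -0.07), where 21.3% of all genes were called. The 13 protein-coding genes of mitochondrial DNA were not analysed here.

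These medians near 0 joined opposite directions. In pair Nseq428 the median log2 ratio of complex I subunits was -0.68 and 1 of 32 was above 0, whereas in pairs Nseq702, Nseq703 and Nseq704 it was 0.30, 0.07 and 0.17, with 25, 20 and 26 above 0. The summed level of the list was 1967, 1072, 1127 and 1015 CPM in vehicle libraries and 1327, 1278, 1158 and 1195 CPM in exposed libraries. Vehicle library Nseq428 was thus the sample that differed, and the 4 exposed libraries lay close together. Complex III subunits behaved alike, with -0.46 in pair Nseq428 and 0.002 to 0.14 in the others. With libraries Nseq702, Nseq703 and Nseq704 alone 2 complex III genes were called higher and 1 lower, and 3 subunits of complex I and 5 of complexes II, IV and V were called higher. In that setting 19.9% of all genes were called higher and 19.7% lower. Without another pair 0 genes of these lists were called higher.

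**Figure D3:**
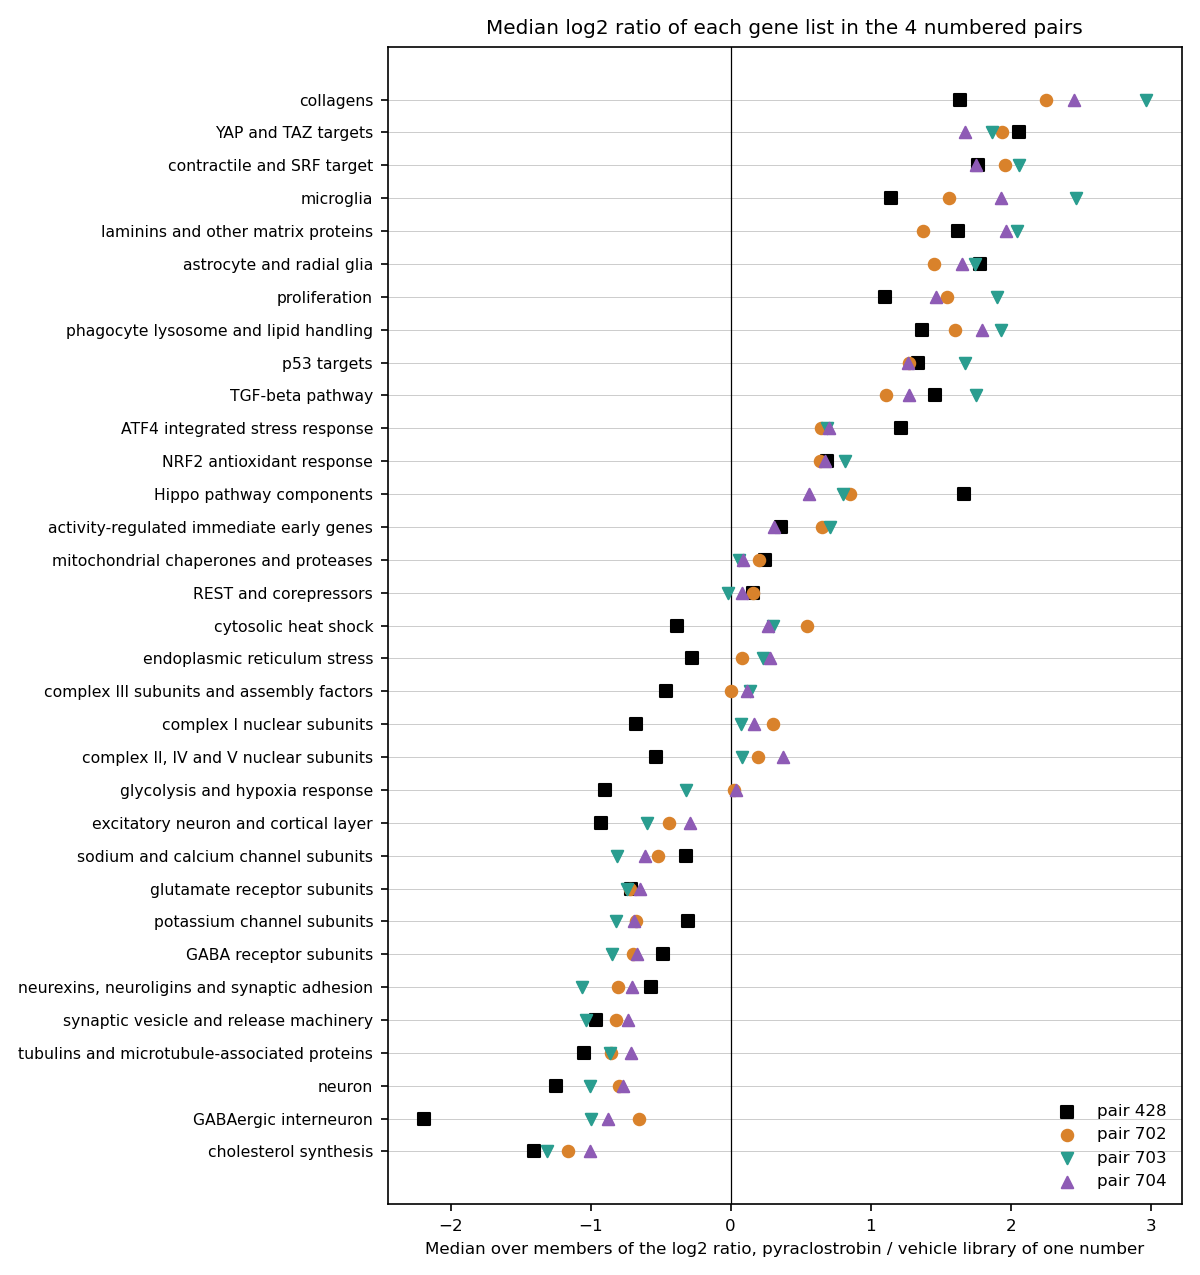
Median over the members of each list with at least 10 tested genes of the log2 ratio between the pyraclostrobin and the vehicle library of the same number (horizontal axis), with a symbol for each of the 4 pairs. Pair Nseq428 (black squares) lay below 0 for the respiratory chain, heat shock and endoplasmic reticulum lists, where the other 3 pairs lay at or above 0, and all 4 pairs had the same direction for the collagens, the contractile genes, the cholesterol synthesis genes and the tubulins.

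Of the chaperones and proteases of mitochondria, 1 of 12 members rose and 0 fell (median 0.19). *Hspa9*, the mitochondrial HSP70, was at 161, 104, 109 and 109 CPM in vehicle and 377, 209, 184 and 190 CPM in exposed libraries (log2 fold change 1.00, SE 0.24, edgeR adjusted p = 0.00800), and its call was lost when any 1 of 7 libraries was left out. *Hspd1* and *Hspe1*, the chaperonins of the matrix, had log2 fold changes of 0.18 and 0.11 and were not called. Of the endoplasmic reticulum stress genes 0 of 15 were called (median -0.01), with *Hspa5* (BiP) at 0.02, *Hsp90b1* at 0.10 and *Pdia4* at 0.64 (edgeR adjusted p = 0.0103). With libraries Nseq702, Nseq703 and Nseq704 alone 3 of them were called higher and 1 lower, where 19.9% and 19.7% of all genes were. Without any other pair 0 of them were called.

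Genes of the integrated stress response rose. Of 36 members of the ATF4 list tested, 16 rose and 0 fell, with a median log2 fold change of 0.89. *Atf4* itself, which is controlled mainly at translation, was at 323, 251, 250 and 236 CPM in vehicle libraries and 410, 389, 398 and 378 CPM in exposed libraries (log2 fold change 0.57, SE 0.12, edgeR adjusted p = 0.00361), a rise of 1.49-fold without overlap. *Atf5*, a related factor linked to the mitochondrial unfolded protein response, went from 93.4, 73.2, 69.5 and 68.4 to 409, 184, 215 and 189 CPM (log2 fold change 1.72, SE 0.25, edgeR adjusted p = 0.000440). Exposed library Nseq428 was the highest of the 4 for both genes.

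The members given next were called and were named for having the largest changes in the list. *Gdf15*, a secreted factor raised in mitochondrial disease, had 7.13, 3.5, 3.5 and 4.95 CPM in vehicle and 62.4, 21.8, 33.1 and 17.4 CPM in exposed libraries (log2 fold change 2.84, SE 0.42, edgeR adjusted p = 0.000439). *Sesn2* (sestrin 2, an inhibitor of mTORC1 signalling) had 32.1, 34.6, 36 and 36 and 168, 101, 116 and 99.1 CPM (log2 fold change 1.80, SE 0.18, edgeR adjusted p = 5.07e-05). *Atf3* had 2.5, 3.5, 4.04 and 3.3 and 22.8, 13.2, 20.6 and 13 CPM (log2 fold change 2.34, SE 0.27, edgeR adjusted p = 0.000127). *Eif4ebp1*, an inhibitor of translation initiation, rose with a log2 fold change of 2.36 and *Trib3* with 1.96. The number of ATF4 list members called higher was 13 to 21 without 1 library and 7 to 22 without 1 pair (lowest without Nseq703, highest without Nseq428). Without pair Nseq428, 2 members were called lower. The median log2 ratio in pair Nseq428 was 1.22.

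The promoter of *Atf3* holds a copy of the joint ATF4 and C/EBP motif, and it is shown because *Atf3* had the largest rise among called members of the list with that motif. The motif was searched as TGATGNAA on both strands of the 250 bases before the transcription start in RefSeq promoters (GRCm38.p6), which are 300 bases long and end 50 bases after the start. It was found in 21.6% of 37 promoters of 30 members and in 1.88% of 11818 promoters of all genes tested. The list has 36 tested members, and those without a promoter sequence were not searched. The letters describe the window and do not show that a factor binds. Capitals mark the motif, which begins 110 bases before the start on the reverse strand. The 300 bases match mm9 once, at chr1:193007163-193007462 on the minus strand.
Atf3: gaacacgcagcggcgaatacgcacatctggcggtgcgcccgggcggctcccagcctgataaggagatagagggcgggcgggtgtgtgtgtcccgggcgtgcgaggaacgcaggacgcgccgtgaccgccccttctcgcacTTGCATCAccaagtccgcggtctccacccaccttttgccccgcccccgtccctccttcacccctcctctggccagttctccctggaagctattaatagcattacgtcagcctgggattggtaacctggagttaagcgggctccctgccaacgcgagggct

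NRF2 target genes rose in part, and those that rose included genes of glutathione, haem and quinone metabolism. Of 34 members of the NRF2 list tested, 12 rose and 0 fell, with a median of 0.70. *Hmox1* (ENSMUSG00000005413.6, chr8:77617490-77624495 of mm9) encodes the haem oxygenase that degrades haem to biliverdin. It was at 40.7, 16.7, 16 and 14.6 CPM in vehicle libraries and 715, 194, 271 and 171 CPM in exposed libraries (log2 fold change 3.99, SE 0.52, edgeR adjusted p = 0.000222), 15.9-fold higher by the fit. Exposed library Nseq428 had the highest level by far, and the lowest exposed library was still above the highest vehicle library. *Nfe2l2*, which encodes NRF2, had 54.2, 31.9, 25.5 and 24.3 CPM and 211, 123, 140 and 113 CPM (log2 fold change 2.14, SE 0.28, edgeR adjusted p = 0.000237). *Keap1*, its inhibitor, had a log2 fold change of -0.26 and was not called.

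The glutathione transferase gene *Gstm1* had 55.6, 24.5, 24 and 16.4 CPM in vehicle and 175, 95.4, 107 and 95.2 CPM in exposed libraries (log2 fold change 2.01, SE 0.35, edgeR adjusted p = 0.00118). *Gsta4*, a transferase for lipid peroxidation products, had 7.85, 0.778, 2.56 and 1.05 CPM and 39.6, 13.5, 12.9 and 22.9 CPM (log2 fold change 2.99, SE 0.59, edgeR adjusted p = 0.00256). Counts of glutathione transferases can be shared between close paralogs, which makes the level of each uncertain. *Mgst1*, a microsomal transferase, rose with a log2 fold change of 2.29, *Ephx1* (microsomal epoxide hydrolase) with 2.11 and *Nqo1* (quinone reductase) with 2.04. Of the NRF2 list, members called higher numbered 7 to 18 without 1 library (lowest without pyraclostrobin Nseq703 or vehicle Nseq703) and 3 to 19 without 1 pair (lowest without Nseq703, highest without Nseq428). *Mgst1* had the largest rise among called members found to hold the core of the antioxidant response element (TGACNNNGC, either strand). The core was found in 26.3% of 38 promoters of 29 members and in 11.7% of all promoters. Other members tested, among them *Hmox1* and *Gsta4*, had no promoter sequence to search. In *Mgst1* the core begins 56 bases before the start on the reverse strand (mm9 chr6:138088798-138089097, plus strand).
Mgst1: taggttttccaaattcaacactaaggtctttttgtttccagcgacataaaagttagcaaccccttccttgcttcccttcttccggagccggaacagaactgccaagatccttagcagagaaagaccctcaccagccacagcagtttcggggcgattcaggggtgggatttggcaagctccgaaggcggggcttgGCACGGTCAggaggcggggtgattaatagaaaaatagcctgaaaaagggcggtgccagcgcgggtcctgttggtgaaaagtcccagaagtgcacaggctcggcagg

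Cytosolic heat shock genes were divided, and those called higher numbered 4 without 1 library and 1 to 5 without 1 pair (lowest without Nseq703, highest without Nseq428). Of 12 genes tested, 4 rose and 1 fell, with a median of 0.11. *Hspb8* (log2 fold change 2.95) and *Bag3* (1.96), partners in chaperone-assisted autophagy of contractile proteins, rose most, beside *Hspa1b* (1.12, whose reads can be shared with *Hspa1a*) and *Hspa4l* (0.94). *Dnaja1* fell by 0.77, and the constitutive *Hspa8* was not called (-0.22).

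Of the targets of p53, the factor that answers DNA damage and other stress, 16 of 22 rose and 0 fell, with a median log2 fold change of 1.55. *Ccng1* (cyclin G1) had 297, 279, 232 and 236 CPM in vehicle and 1494, 971, 1131 and 980 CPM in exposed libraries (log2 fold change 2.14, SE 0.16, edgeR adjusted p = 9.12e-06), 4.39-fold higher. *Cdkn1a*, the cell cycle inhibitor p21, had 202, 127, 125 and 119 and 513, 356, 464 and 344 CPM (log2 fold change 1.55, SE 0.20, edgeR adjusted p = 0.000202). All 4 exposed libraries lay above all vehicle libraries for both. The death receptor genes *Tnfrsf10b*, *Eda2r* and *Fas* had log2 fold changes of 2.74, 2.51 and 2.30, *Mdm2* (the ligase that degrades p53) had 1.31, and *Bax*, a pore-forming protein of apoptosis, was not called (0.59). The p53 targets called higher numbered 15 to 17 without 1 library and 12 to 18 without 1 pair (lowest without Nseq703, highest without Nseq428).

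Glycolysis and hypoxia genes did not move together. Of 27 genes tested, 2 rose and 4 fell, where 12.1% of all genes were called higher and 9.22% lower. The median of the list was -0.38, and it was -0.09 in libraries Nseq702, Nseq703 and Nseq704 and 0.096 without vehicle library Nseq428. Members of the list called lower numbered 2 to 6 without 1 library (lowest without pyraclostrobin Nseq702, pyraclostrobin Nseq703 or pyraclostrobin Nseq704) and 0 to 11 without 1 pair (lowest without Nseq703, highest without Nseq428), and those called higher 1 to 4 without 1 library (highest without vehicle Nseq428) and 0 to 4 without 1 pair (lowest without Nseq703, highest without Nseq428). The mitophagy receptor gene *Bnip3* had 237, 72.8, 84.6 and 51.9 CPM in vehicle and 39.3, 18.8, 19 and 23.3 CPM in exposed libraries (log2 fold change -2.14, SE 0.46, edgeR adjusted p = 0.00406), a call that was lost without any 1 of exposed libraries Nseq702, Nseq703 and Nseq704. *Pfkl* (phosphofructokinase) fell by 1.43, *Hk1* (hexokinase 1) by 0.87 and *Eno2* (neuronal enolase) by 0.92. *Slc2a1*, the glucose transporter GLUT1, had a log2 fold change of 1.38 and was not called (edgeR adjusted p = 0.0184), while *Slc2a3*, the neuronal transporter, had -0.43 (edgeR adjusted p = 0.0392). Of the 2 rises, that of *Adm* (adrenomedullin) was of a gene that reached 10 counts only in exposed libraries and so was tested through its own high group, with a log2 fold change of 2.85, a value that depends on the prior count.

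Cholesterol synthesis genes fell almost without exception. Of 22 genes tested, 0 rose and 20 fell, with a median log2 fold change of -1.34. The levels of the groups did not overlap for any of the 22, nor for 35.2% of all genes. Those called lower numbered 17 to 21 without 1 library and 15 to 21 without 1 pair. *Mvd*, the decarboxylase that ends the mevalonate branch, had 243, 104, 130 and 106 CPM in vehicle and 29.4, 29.7, 22.1 and 36.7 CPM in exposed libraries (log2 fold change -2.30, SE 0.29, edgeR adjusted p = 0.000172), 4.92-fold lower. *Stard4* (a cholesterol carrier) fell by 1.82, *Nsdhl* by 1.78, *Fdps* (farnesyl diphosphate synthase) by 1.73 and *Mvk* (mevalonate kinase) by 1.70. The fall was present in each pair, with median log2 ratios of -1.41, -1.16, -1.31 and -1.01. A sterol regulatory element, searched only as TCACNCCAC on both strands, was found in 0 of 18 promoters of 15 members and in 0.998% of all promoters. The other members had no promoter sequence to search. With so few promoters and so low a share of all promoters, this search does not show that these genes lack the element.

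**Figure D4:**
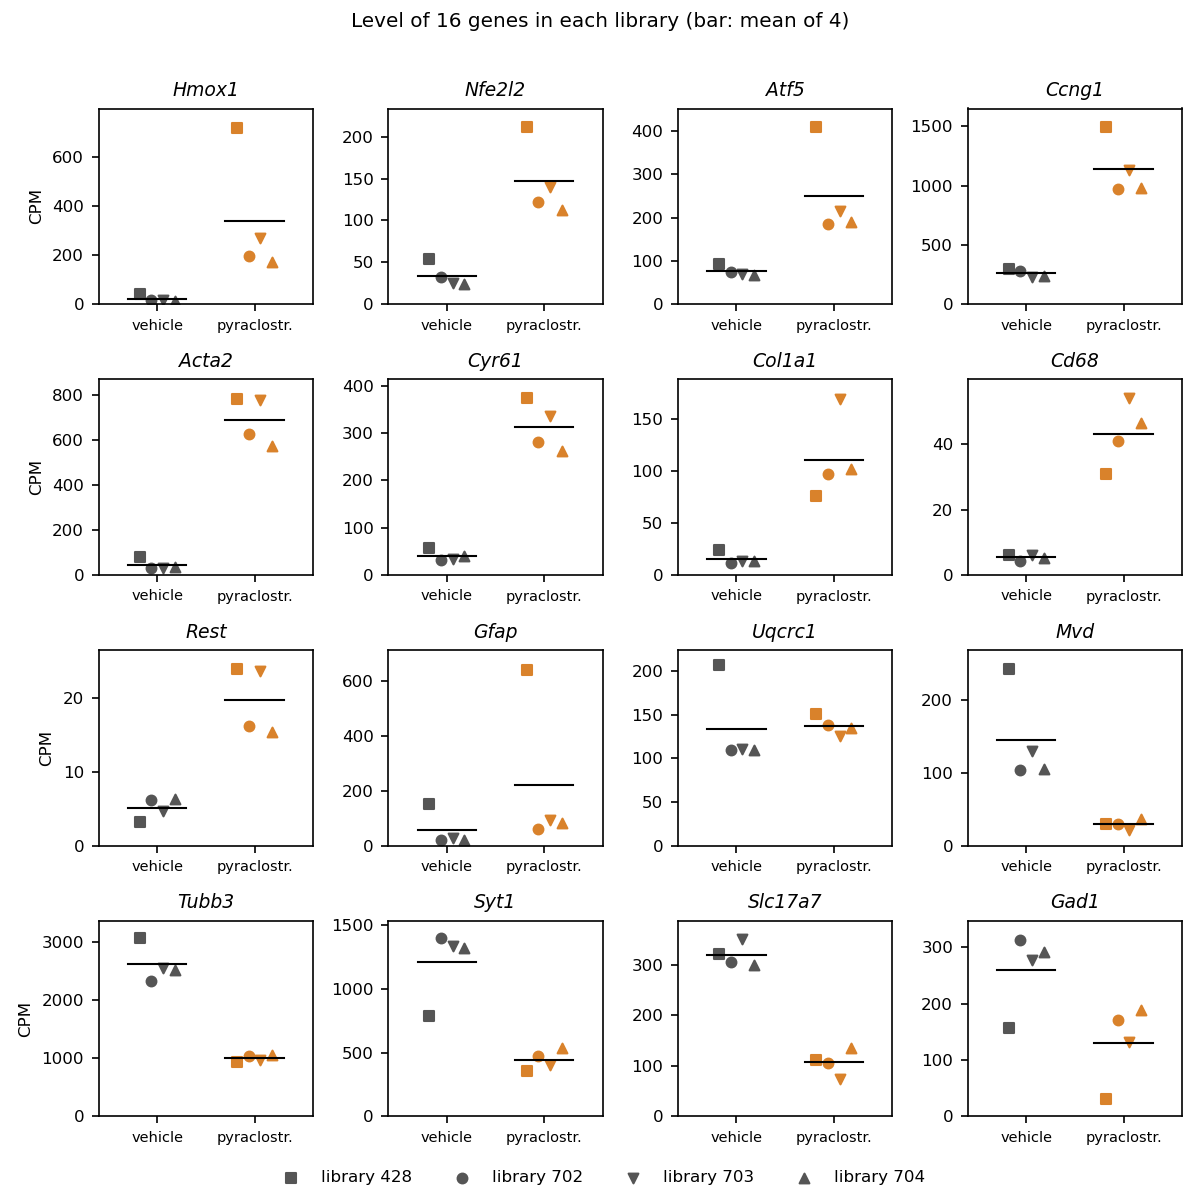
CPM (vertical axes, from 0) of 16 genes in the 4 vehicle (grey) and 4 pyraclostrobin libraries (orange), with a symbol for each number and a bar at the mean of 4. For *Hmox1* to *Rest* all exposed libraries lay above all vehicle libraries, for *Mvd* to *Slc17a7* all lay below, and for *Uqcrc1* and *Gad1* the groups overlapped; for *Gfap* library Nseq428 was the highest of its group in both.

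Genes for contractile proteins rose together, and many of them are targets of serum response factor (SRF), a factor whose MRTF coactivators are released to act when actin polymerizes. Of 38 contractile and SRF target genes tested, 29 rose and 0 fell, with a median of 1.93. Those called higher numbered 25 to 31 without 1 library and 23 to 33 without 1 pair, and those called lower 0 to 2 in both cases. *Acta2* (ENSMUSG00000035783.8, chr19:34315580-34329826 of mm9), smooth muscle α-actin, was at 80.2, 31.9, 29.4 and 34.5 CPM in vehicle libraries and 781, 623, 774 and 571 CPM in exposed libraries (log2 fold change 3.99, SE 0.31, edgeR adjusted p = 1.14e-05), 15.9-fold higher. *Tagln* (transgelin) had 66, 37.4, 36.9 and 52.4 and 677, 515, 614 and 485 CPM (log2 fold change 3.58, SE 0.21, edgeR adjusted p = 2.82e-06). The lowest exposed library was several times above the highest vehicle library for both. Actin genes are near-identical, so reads of *Acta1* (1.08) and *Actc1* (0.68), which were not called, could be shared with *Acta2*.

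*Flnc* (filamin C) rose with a log2 fold change of 3.72 and *Flna* with 1.86. *Cnn1* (calponin) and *Tpm2* (β-tropomyosin) reached 10 counts only in exposed libraries: *Tpm2* had 0.713, 0, 0.404 and 1.05 CPM in vehicle and 15.7, 33.1, 40.3 and 21.7 CPM in exposed libraries, and *Cnn1* 2.5, 1.56, 0.809 and 1.05 and 35.3, 19.2, 25.5 and 16.6 CPM, and their fitted values of 5.43 and 4.19 depend on the prior count. The CArG box, the motif of SRF, was found by its usual form on both strands in 26.7% of 45 promoters of 35 members and in 1.13% of all promoters. Members without a promoter sequence, among them *Tagln*, were not searched. *Myl9*, a myosin light chain of smooth muscle, had the largest rise among called members found to hold the box, with a log2 fold change of 3.32. Its box begins 161 bases before the start on the forward strand (mm9 chr2:156600950-156601249, plus strand).
Myl9: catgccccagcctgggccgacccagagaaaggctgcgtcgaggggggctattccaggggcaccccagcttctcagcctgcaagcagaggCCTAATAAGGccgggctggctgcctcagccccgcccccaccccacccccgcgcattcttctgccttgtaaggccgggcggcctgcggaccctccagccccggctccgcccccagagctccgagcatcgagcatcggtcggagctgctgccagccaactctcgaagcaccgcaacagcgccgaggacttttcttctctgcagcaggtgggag

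Targets of YAP and TAZ, the coactivators that the Hippo kinases keep out of the nucleus and that act through TEAD factors, also rose. Of 21 YAP and TAZ target genes tested, 16 rose and 0 fell, with a median of 2.02. *Cyr61*, a secreted matricellular protein, was at 57.4, 31.5, 32.6 and 39.3 CPM in vehicle and 373, 280, 336 and 261 CPM in exposed libraries (log2 fold change 2.97, SE 0.21, edgeR adjusted p = 6.15e-06). *Ctgf*, a related protein, had 45.3, 47.5, 46.1 and 51.6 and 230, 263, 327 and 261 CPM (log2 fold change 2.50, SE 0.14, edgeR adjusted p = 1.86e-06). Levels did not overlap for either. *Myof* (myoferlin), *Ajuba*, the receptor kinase gene *Axl* and the phosphatase gene *Ptpn14* had log2 fold changes of 2.95, 2.86, 2.84 and 2.74.

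The components of the pathway rose in part. Of 15 Hippo pathway genes tested, 7 rose and 0 fell, with a median of 0.60. *Yap1* had 21, 16.4, 13.5 and 13.8 CPM in vehicle and 67.9, 47.3, 59.4 and 43.8 CPM in exposed libraries (log2 fold change 1.78, SE 0.20, edgeR adjusted p = 0.000104). *Tead1* had 25, 45.2, 40.7 and 40.8 and 345, 178, 230 and 196 CPM (log2 fold change 2.64, SE 0.24, edgeR adjusted p = 2.92e-05). Hippo pathway genes called higher numbered 7 without 1 library and 4 to 8 without 1 pair (lowest without Nseq703, highest without Nseq428). *Wwtr1*, which encodes TAZ, had a log2 fold change of 2.27, *Tead2* 2.44 and *Tead3* 2.34. The TEAD motif (GGAATG, either strand) was found in 35.3% of 17 promoters of 15 members of the target list and in 10.6% of all promoters. In *Cyr61* (*Ccn1* in RefSeq), the called member with the largest rise, it begins 103 bases before the start on the reverse strand (mm9 chr3:145312900-145313199, minus strand).
Cyr61: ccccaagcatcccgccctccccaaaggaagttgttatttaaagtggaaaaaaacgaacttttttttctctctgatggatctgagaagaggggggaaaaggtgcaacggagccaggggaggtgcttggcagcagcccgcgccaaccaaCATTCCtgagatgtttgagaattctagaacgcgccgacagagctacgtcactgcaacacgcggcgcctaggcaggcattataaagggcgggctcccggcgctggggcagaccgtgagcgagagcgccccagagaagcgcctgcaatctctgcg

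Of the TGF-β pathway, which drives matrix production and shares targets with SRF and YAP, 11 of 18 members rose and 0 fell (median 1.47). The ligand gene *Tgfb3* (2.34), the receptor gene *Tgfbr2* (2.17), the latent binding protein gene *Ltbp2* (2.62) and the corepressor gene *Tgif1* (2.71) rose, and *Tgfbr1* was not called (0.46, edgeR adjusted p = 0.0278). The TGF-β genes called higher numbered 10 to 12 without 1 library and 6 to 13 without 1 pair (lowest without Nseq703, highest without Nseq428), and 1 of them, *Ltbp1*, reached 10 counts only in exposed libraries.

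Genes of the extracellular matrix rose broadly. Of the collagens 17 of 20 rose and 0 fell, with a median of 2.39. Those called higher numbered 15 to 17 without 1 library and 12 to 17 without 1 pair, and those called lower 0 to 1 in both cases. *Col1a1*, a chain of the fibrillar collagen of connective tissue, had 23.9, 11.3, 13.6 and 13.4 CPM in vehicle and 75.7, 96.6, 169 and 102 CPM in exposed libraries (log2 fold change 2.86, SE 0.29, edgeR adjusted p = 5.66e-05). *Col8a2* (3.11), *Col5a2* (2.97), *Col8a1* (2.90) and *Col4a5* (2.89), of the basement membrane, rose most beside it, and *Col1a2* (1.96) and *Col3a1* (2.28) rose too.

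Of 42 laminins and other matrix proteins tested, 25 rose and 1 fell, with a median of 1.83. Those called higher numbered 24 to 27 without 1 library and 23 to 28 without 1 pair, and those called lower 0 to 2 in both cases. *Thbs1* (thrombospondin 1) had 84.5, 75.5, 56.7 and 68.4 CPM in vehicle and 678, 651, 820 and 637 CPM in exposed libraries (log2 fold change 3.30, SE 0.15, edgeR adjusted p = 1.86e-06). *Hspg2* (perlecan) had 16.8, 24.5, 15.1 and 24.5 and 226, 235, 237 and 190 CPM (log2 fold change 3.46, SE 0.19, edgeR adjusted p = 1.86e-06). *Lama5*, a laminin chain of basement membranes, had 15.7, 12.8, 9.03 and 12.3 and 150, 99.9, 119 and 108 CPM (log2 fold change 3.29, SE 0.20, edgeR adjusted p = 3.88e-06). The exposed libraries exceeded all vehicle libraries for each of these. *Tnc* (tenascin C, 3.26) and *Spp1* (osteopontin, 3.08) were among the largest rises, and *Lama1* (1.15) and *Lama2* (1.11) were not called. The member that fell was *Hapln1* (log2 fold change -1.19), a link protein of the hyaluronan matrix around neurons.

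Tubulins and microtubule-associated proteins, which carry axonal transport and growth, moved the other way. Of 24 members tested, 1 rose and 18 fell, with a median of -0.87. *Tubb3*, the neuronal β-tubulin, was at 3063, 2327, 2546 and 2518 CPM in vehicle and 933, 1042, 975 and 1051 CPM in exposed libraries (log2 fold change -1.39, SE 0.11, edgeR adjusted p = 1.14e-05), 2.61-fold lower. Tubulins and associated proteins called lower numbered 14 to 20 without 1 library and 7 to 21 without 1 pair (lowest without Nseq703, highest without Nseq428). *Tuba4a* fell by 1.47, *Tubb4a* by 1.43, *Stmn1* (stathmin) by 1.09 and *Map2* (a dendritic protein) by 0.58. α-tubulin genes are near-identical, so the levels of *Tuba1a*, *Tuba1b* (fell by 0.88) and *Tuba1c* (fell by 0.91) are uncertain. *Tubb6*, a β-tubulin of non-neuronal cells, was the exception, with 28.2, 14, 17.8 and 16.4 CPM in vehicle and 130, 88.3, 109 and 87.7 CPM in exposed libraries (log2 fold change 2.45, SE 0.22, edgeR adjusted p = 2.75e-05).

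Markers of neurons as a class fell. Of 14 neuron markers tested, 0 rose and 13 fell, with a median log2 fold change of -0.96. Levels did not overlap for any of the 14, nor for 35.2% of all genes. The summed level of the 14 was 13233, 12286, 12070 and 11974 CPM in vehicle libraries and 5514, 6776, 5908 and 6818 CPM in exposed libraries. Fewer cells of a type and less RNA per cell cannot be told apart in such data, here or for the groups that follow. *Snap25*, a protein of vesicle fusion, had 524, 513, 504 and 461 CPM and 182, 248, 198 and 247 CPM (log2 fold change -1.19, SE 0.13, edgeR adjusted p = 7.44e-05). Neuron markers called lower numbered 10 to 14 without 1 library and 6 to 14 without 1 pair (lowest without Nseq703, highest without Nseq428). *Rbfox3* (NeuN) fell by 0.98, *Stmn2* by 1.04 and *Nefh* (neurofilament heavy chain) by 1.16.

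Genes of the synapse fell in part, and whether they fell by more than the neuron markers was not tested. Of the synaptic vesicle and release machinery 0 of 32 members rose and 18 fell (median -0.86). *Syt1*, the calcium sensor of release, had 787, 1398, 1341 and 1322 CPM in vehicle and 355, 473, 403 and 537 CPM in exposed libraries (log2 fold change -1.46, SE 0.19, edgeR adjusted p = 0.000244). *Cplx1* (complexin) fell by 1.31, *Sv2b* by 1.23, *Syn2* (synapsin) by 1.22, and *Vamp1*, which reached 10 counts only in vehicle libraries so that its value depends on the prior count, by 2.09. *Syt4* was not called (-0.29). Vesicle genes called lower numbered 14 to 24 without 1 library and 9 to 25 without 1 pair (lowest without Nseq703, highest without Nseq428).

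Of the synaptic adhesion genes 0 of 29 rose and 14 fell (median -0.78). The neurexin gene *Nrxn2*, of presynaptic adhesion, fell by 0.96, *Nrxn3* by 1.47, *Cntnap4* by 2.03, *Cntn6* (a contactin) by 2.02, *Lrrtm4* by 1.08 and *Lrrtm3* by 1.05. Adhesion genes called lower numbered 8 to 23 without 1 library (lowest without vehicle Nseq702, pyraclostrobin Nseq703, vehicle Nseq703 or vehicle Nseq704, highest without vehicle Nseq428) and 3 to 23 without 1 pair (lowest without Nseq703, highest without Nseq428).

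Of the glutamate receptor subunits 0 of 22 rose and 9 fell (median -0.64). *Grik1* had 13.6, 21, 27.6 and 24.8 CPM in vehicle and 1.18, 4.13, 4.57 and 4.34 CPM in exposed libraries (log2 fold change -2.62, SE 0.35, edgeR adjusted p = 0.000257), the metabotropic receptor genes *Grm3* and *Grm7* fell by 1.61 and 1.33, and *Grik3* fell by 1.57. Of the AMPA receptor genes *Gria1* fell by 1.07, and *Gria2* (-0.44) and *Gria3* (0.01) were not called. Of the GABA receptor subunits 0 of 13 rose and 6 fell (median -0.67), with *Gabrd* (-1.60), *Gabra3* (-1.05) and *Gabbr1* (-0.91) among them and *Gabra2* (0.03) not called. Glutamate receptor subunits called lower numbered 6 to 13 without 1 library and 3 to 14 without 1 pair (lowest without Nseq703, highest without Nseq428). For GABA receptor subunits they numbered 3 to 10 without 1 library (lowest without vehicle Nseq704, highest without vehicle Nseq428) and 0 to 11 without 1 pair (lowest without Nseq703, highest without Nseq428).

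Of the sodium and calcium channel subunits 1 of 26 rose and 9 fell (median -0.62), and of the potassium channel subunits 2 of 42 rose and 9 fell (median -0.66). *Scn8a*, a sodium channel of axon initial segments, fell by 1.02, *Scn2b* by 1.04 and *Cacng2* (stargazin) by 0.97. *Kcnt1*, a sodium-activated potassium channel gene, fell by 2.01, *Kcnh3* by 1.94 and *Kcnc2*, a channel of fast-spiking cells, by 1.69. *Kcnj10*, the inward rectifier of astrocytes, rose with 1.25 and *Scn4b* with 1.51. These counts depended on the libraries used, as did those of all genes. Of all genes tested, 682 to 1917 were called lower without 1 library and 219 to 2422 without 1 pair. Sodium and calcium channel subunits called lower numbered 2 to 17 without 1 library (lowest without pyraclostrobin Nseq703 or vehicle Nseq703, highest without vehicle Nseq428) and 1 to 20 without 1 pair (lowest without Nseq702 or Nseq703, highest without Nseq428). For potassium channel subunits they numbered 5 to 24 without 1 library (lowest without vehicle Nseq702, vehicle Nseq703 or vehicle Nseq704, highest without vehicle Nseq428) and 3 to 28 without 1 pair (lowest without Nseq703, highest without Nseq428). With the library number as a block in the fit, 18 potassium and 14 sodium and calcium channel subunits were called lower.

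Immediate early genes, which answer calcium entry and growth factors, rose in part. Of 29 genes tested, 8 rose and 1 fell, with a median of 0.56. Those called higher numbered 5 to 10 without 1 library (lowest without pyraclostrobin Nseq702, pyraclostrobin Nseq703 or vehicle Nseq703) and 3 to 16 without 1 pair (lowest without Nseq703, highest without Nseq428). *Fos* had 13.2, 19.1, 14.3 and 27.2 CPM in vehicle and 22.4, 74, 115 and 71.5 CPM in exposed libraries (log2 fold change 1.92, SE 0.41, edgeR adjusted p = 0.00393), so that exposed library Nseq428 lay within the range of the vehicle libraries. The members that rose most, *Klf4* (2.72) and *Btg2* (1.94), are also induced by stress, and *Btg2* and *Gadd45b* are on the p53 and YAP lists as well. The member that fell was *Egr3* (log2 fold change -1.45), an activity-induced factor of neurons. *Rest*, the repressor of neuronal genes in other cell types, had 3.21, 6.23, 4.72 and 6.3 CPM in vehicle and 23.9, 16.2, 23.6 and 15.4 CPM in exposed libraries (log2 fold change 1.93, SE 0.26, edgeR adjusted p = 0.000291), 3.81-fold higher without overlap. None of the other 9 tested genes of REST and its corepressors was called, with *Rcor1* at 0.35 and *Rcor2* at 0.16.

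Markers of neuron classes fell less uniformly. Of the excitatory and cortical layer genes 0 of 14 rose and 4 fell (median -0.54). *Slc17a7*, the vesicular glutamate transporter VGLUT1, had 320, 306, 351 and 300 CPM in vehicle and 111, 106, 74.6 and 136 CPM in exposed libraries (log2 fold change -1.58, SE 0.17, edgeR adjusted p = 7.06e-05), and *Camk2a* had 239, 318, 327 and 300 and 115, 128, 102 and 105 CPM (log2 fold change -1.40, SE 0.14, edgeR adjusted p = 4.58e-05). Both mark maturing glutamatergic neurons. Excitatory and layer genes called lower numbered 2 to 5 without 1 library (lowest without pyraclostrobin Nseq703) and 2 to 6 without 1 pair (lowest without Nseq702, Nseq703 or Nseq704, highest without Nseq428). *Rorb* fell by 1.46 and *Emx1* by 0.78, whereas *Slc17a6* (VGLUT2) was not called (0.15).

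Of the GABAergic interneuron markers 0 of 17 rose and 5 fell (median -0.99). *Gad1*, which makes GABA, had 157, 313, 276 and 292 CPM in vehicle and 30.6, 170, 132 and 188 CPM in exposed libraries (log2 fold change -0.99, SE 0.42, edgeR adjusted p = 0.0879), so that library Nseq428 was the lowest of both groups. The summed level of the list was 1283, 2472, 2411 and 2598 CPM in vehicle and 654, 1469, 1374 and 1534 CPM in exposed libraries. The exposed library was below the vehicle library in each pair. Of the 5, *Dlx6* and *Htr3a* reached 10 counts only in vehicle libraries, so that they were tested through their own high group and their values depend on the prior count. *Dlx6* fell by 2.69 and *Dlx1* by 1.52. Interneuron markers called lower numbered 2 to 8 without 1 library (lowest without pyraclostrobin Nseq703, vehicle Nseq703, pyraclostrobin Nseq704 or vehicle Nseq704, highest without vehicle Nseq428) and 0 to 12 without 1 pair (lowest without Nseq703, highest without Nseq428). With the library number as a block in the fit, 10 were called lower.

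**Figure D5:**
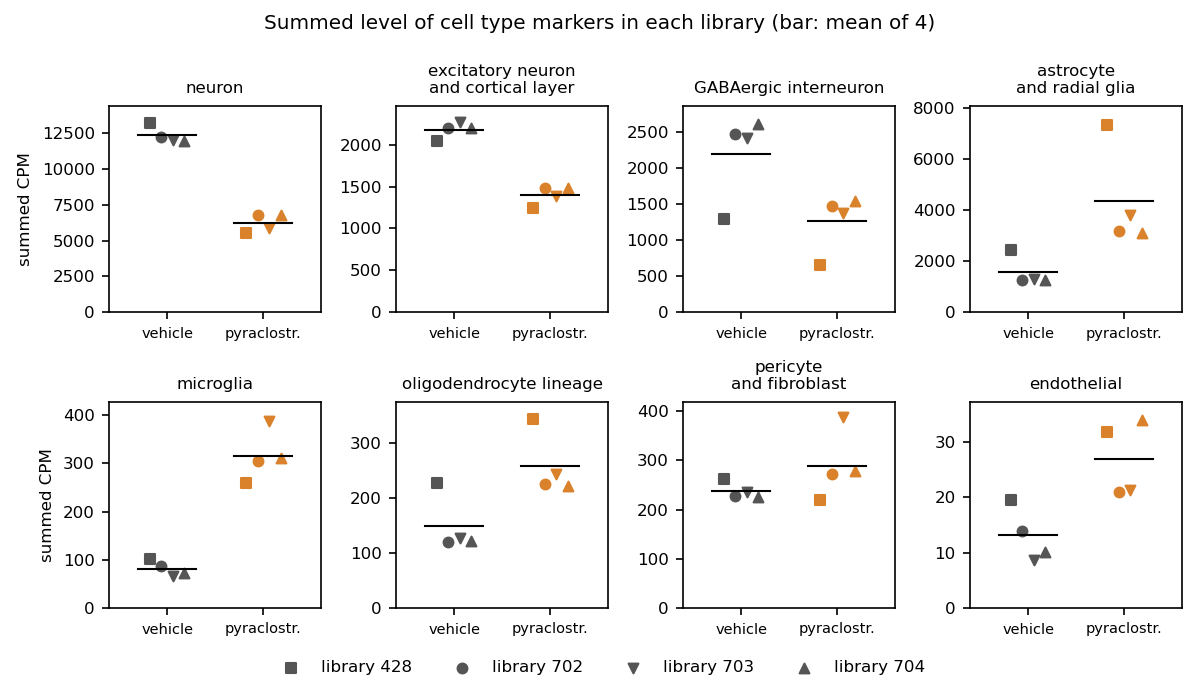
Summed CPM (vertical axes, from 0) of the markers of 8 cell types in the 4 vehicle (grey) and 4 pyraclostrobin libraries (orange), with a symbol for each number and a bar at the mean of 4. Neuron sums were 11974 to 13233 CPM in vehicle and 5514 to 6818 CPM in exposed libraries, microglial sums 66.2 to 101 CPM and 260 to 388 CPM, and library Nseq428 held the highest astrocyte sum and the lowest interneuron sum in each group.

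Markers of glia rose in part. Of the astrocyte and radial glia markers 6 of 15 rose and 0 fell (median 1.79), with a summed level of 2441, 1264, 1281 and 1251 CPM in vehicle and 7333, 3192, 3794 and 3107 CPM in exposed libraries. *Vim*, an intermediate filament of glia and other non-neuronal cells, had 408, 158, 179 and 173 CPM and 1767, 1143, 1446 and 1100 CPM (log2 fold change 2.58, SE 0.30, edgeR adjusted p = 0.000129). *Gfap*, the filament of mature astrocytes, had 151, 21, 29.1 and 21.9 CPM in vehicle and 640, 60.1, 93.6 and 82.2 CPM in exposed libraries (log2 fold change 2.01, SE 0.85, edgeR adjusted p = 0.0897), so that every exposed library was above the vehicle library of its number but the groups overlapped through library Nseq428. *Nes* (nestin, 2.45), *Gja1* (connexin 43, 2.22) and *Acsbg1* (2.15) rose, and *Aqp4* (1.96) and *Aldh1l1* (2.28) were not called. Astrocyte and radial glia markers called higher numbered 4 to 13 without 1 library (highest without vehicle Nseq428) and 2 to 14 without 1 pair (lowest without Nseq703, highest without Nseq428). With the library number as a block in the fit, 13 were called higher.

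Of 26 microglia markers 15 were tested, of which 14 rose and 0 fell (median 1.90). Their levels were low, with a summed level of 101, 86, 66.2 and 73.2 CPM in vehicle and 260, 304, 388 and 312 CPM in exposed libraries. *Cd68*, a lysosomal protein of phagocytes, had 6.06, 4.28, 6.2 and 5.25 CPM and 31, 41, 54 and 46.6 CPM (log2 fold change 2.96, SE 0.22, edgeR adjusted p = 8.93e-06). *Cx3cr1*, the fractalkine receptor, had 3.57, 7.4, 3.64 and 6.00 CPM and 10.2, 18, 14.8 and 16.2 CPM (log2 fold change 1.55, SE 0.29, edgeR adjusted p = 0.00196). *Trem2* (2.87), its adaptor *Tyrobp* (2.47), *C1qa* (2.06) and *Csf1r* (1.74), the receptor of the *Csf1* product, rose too. Of the defining markers, *Siglech* had no count, and *P2ry12* and *Tmem119* had 4 and 11 counts in all vehicle libraries and 6 and 23 in all exposed libraries, raw sums over groups in which the vehicle libraries were the deeper. Microglia markers called higher numbered 10 to 14 without 1 library and 6 to 14 without 1 pair (lowest without Nseq703, highest without Nseq428).

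Of 24 phagocyte genes tested, 18 rose and 0 fell, with a median of 1.72, in a list of lysosomal and lipid-handling genes of phagocytes. *Lgals3* (galectin 3) had a log2 fold change of 3.98, *Clec7a* 3.36 and *Gpnmb* 3.34, which are raised in lipid-laden or disease-associated microglia, and *Apoe*, which astrocytes also make, 1.64. *Plin2*, of lipid droplets, had 2.51. *Lpl* was not called (0.11). Phagocyte genes called higher numbered 13 to 21 without 1 library and 9 to 21 without 1 pair (lowest without Nseq703, highest without Nseq428), and 1 of them, *Tspo*, reached 10 counts only in exposed libraries.

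Of 14 oligodendrocyte lineage markers 7 were tested, 2 rose and 1 fell. *Cspg4* (NG2, also on pericytes) had a log2 fold change of 2.08 and *Olig2* 1.502, and *Mog*, of myelin, fell by 0.97, while *Mag* had no count and *Sox10* had 2. Of 12 endothelial markers 1 was tested and called: *Kdr* rose with 1.57, while *Cldn5*, *Tie1*, *Ly6c1* and *Emcn* had no count in any library and *Pecam1* had 9 counts in each group. Of 14 pericyte and fibroblast markers 6 were tested: *Pdgfrb* (1.94) and the 3 collagens rose, and *Thy1*, which neurons express as well, fell by 0.96. The median of the 6 was 1.95, and members called higher numbered 3 to 4 without 1 library and 1 to 4 without 1 pair (lowest without Nseq703, highest without Nseq428). The other 8 were not tested and had few counts, given as raw sums over groups in which the vehicle libraries were the deeper: *Kcnj8* had 1 in each group, *Abcc9* 6 in vehicle and 4 in exposed libraries, *Lum* 14 and 26, *Anpep* 5 and 25 and *Rgs5* 23 and 12. The summed level of the list was 261, 227, 237 and 226 CPM in vehicle and 221, 272, 388 and 278 CPM in exposed libraries, most of which in vehicle libraries was *Thy1*. These values stand beside the rise of matrix and contractile genes, in which the part of such cells was not tested.

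Genes of the cell cycle were higher although an antimitotic agent had been given. Of 24 genes tested, 10 rose and 0 fell, with a median of 1.73. Those called higher numbered 7 to 18 without 1 library (highest without vehicle Nseq428) and 3 to 21 without 1 pair (lowest without Nseq703, highest without Nseq428), and 1 of them, *Ccnb2*, reached 10 counts only in exposed libraries. With the library number as a block in the fit, 15 were called higher. *Ccnd2* had 270, 384, 349 and 359 CPM in vehicle and 2065, 1428, 1783 and 1390 CPM in exposed libraries (log2 fold change 2.29, SE 0.16, edgeR adjusted p = 6.19e-06), 4.9-fold higher. *Mki67*, which marks dividing cells, had 19.3, 14.4, 13.2 and 15.5 CPM and 71.8, 48.5, 50.2 and 50.6 CPM (log2 fold change 1.84, SE 0.19, edgeR adjusted p = 5.43e-05). Neither overlapped between groups. *Cdk1* (2.66), *Birc5* (2.38) and *Top2a* (2.26), of mitosis, rose from low levels, and *Ccnb1* was not called (1.84, edgeR adjusted p = 0.0205). Of 20 interferon-stimulated genes 8 were tested, 4 rose and 1 fell (median 1.45), led by *Ifit2* (2.60) and *Ifitm3* (2.26), while *Stat2* fell by 0.57. Interferon-stimulated genes called higher numbered 3 to 5 without 1 library and 1 to 5 without 1 pair (lowest without Nseq703, highest without Nseq428).

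Long genes, many of which are neuronal and synaptic, were also compared as a class. Of 782 genes spanning over 200 kb in the mm9 annotation, 15.2% were called lower and 10.9% higher, with a median log2 fold change of -0.26. Of 10163 genes of at most 100 kb, 8.61% were called lower and 11.9% higher, with a median of 0.019. The 1109 genes of 100 to 200 kb had a median of 0.001, with 16.5% called higher.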

How the data were processed

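The authors aligned paired reads of unstranded polyadenylated RNA libraries to mm9 with TopHat (per the labels), removed ribosomal reads, and deposited whole-number counts per gene over RefSeq exons, joined by symbol. The depth of each library is the sum of its column. Here genes that reached 10 counts in 4 or more of the 8 libraries were tested with the quasi-likelihood test of edgeR 4.0.16 (R 4.3.3, TMM scaling, groups as the only term, Benjamini-Hochberg adjustment, threshold 0.01), after a check on simulated counts. DESeq2 1.42.0, limma 3.58.1 (voom) and the other alternatives are in the closing section. Single-library values have no interval, and their precision is limited by counting at these depths.

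The gene lists and members were chosen with earlier results of these data known. Genes are named by a fixed rule: the 12 largest rises and falls with a mean of 50 counts, the 5 most abundant called genes in each direction, up to 5 called and the first 3 members of each list, and 4 genes the study measured by PCR. *Myl9*, *Hapln1*, *Egr3*, *Ltbp1*, *Tspo*, *Ccnb2* and untested cell-type markers were named after their values were seen. Some genes that the rule names are not reported here. Genes sharing reads with near-identical copies are uncertain, and without strand an overlapping or antisense gene cannot be told apart. Positions are those of the mm9 annotation, and promoter sequences are from RefSeq (GRCm38.p6). Mitochondrially encoded genes were not analysed here.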

Additional observations from a re-analysis of the deposited data

Results flagged for a closer look

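Among the genes with levels given per library, 92 groups of 4 libraries were examined on a log2 scale for a library far from the other 3 of its group, by the gap to its nearest neighbour as a share of the range. Chance marks about 1 in 20 such groups, and 12 were marked, 11 of them through a library numbered Nseq428. Vehicle library Nseq428 was highest for *Uqcrc1* (0.987), *Hspa9* (0.907), *Cdkn1a* (0.883), *Vim* (0.867), *Hmox1* (0.866), *Acta2* (0.840) and *Gfap* (0.836), and lowest for *Syt1* (0.903). Pyraclostrobin library Nseq428 was highest for *Mki67* (0.893) and *Tuba1a* (0.850) and lowest for *Grik1* (0.919). Pyraclostrobin library Nseq702 held the only counts of *Hkdc1* in its group (1.000).

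In 5 lists the median log2 ratio of pair Nseq428 was below 0 while those of the other pairs were all above 0, and this difference was not tested. It was -0.463 for complex III, where the others were 0.002, 0.141 and 0.120, and -0.675 for complex I, against 0.303, 0.071 and 0.167. It was -0.531 for complexes II, IV and V, against 0.194, 0.079 and 0.377. For cytosolic heat shock genes it was -0.381, against 0.548, 0.306 and 0.266, and for endoplasmic reticulum stress genes -0.276, against 0.078, 0.233 and 0.278.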

How the results depend on the processing

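Every gene called in the main comparison kept its direction under each alternative in which it was tested, and no named gene reversed. The number called moved by more than 1.5 times under 9 of 25 alternatives, the number higher under 8 and the number lower under 12. It was 4301 (2277 higher, 2024 lower) at a threshold of 0.05, and 421 (396 and 25) when a change beyond 2-fold was tested. Scaling to library totals alone gave 706 lower genes, and removing length and GC trends 1796 lower and 1616 higher genes. Each pair left out moved the total by over 1.5 times (4870 without pair Nseq428, 1250 without Nseq702, 750 without Nseq703 and 1374 without Nseq704). Leaving out 1 library or 1 pair gave 750 to 4870 called genes, 531 to 2448 higher and 219 to 2422 lower. The single libraries that moved the total by over 1.5 times were vehicle Nseq428 (4069 without it) and vehicle Nseq703 (1678 without it). Without vehicle libraries Nseq703 and Nseq704, a choice made after seeing the data, 654 genes were called (412 higher, 242 lower), and thinning all libraries to 1 depth, also chosen afterwards, gave 2402. The former leaves 2 vehicle libraries against 4, so the share of its shift that comes from depth was not tested. The cause of the other shifts was not tested. DESeq2 called 3340 genes and voom 2703.

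The study compared pyraclostrobin with matched vehicle controls, and the headers name each vehicle library by the number of an exposed library. Same-numbered libraries did not all deviate together (correlations of 0.375, 0.101, -0.029 and 0.160), so the numbers were not taken as pairs in the main test. Between a library numbered Nseq428 and libraries of other numbers in the other group the correlations were -0.307 to -0.023, against 0.375 in its own pair. Among the other numbers they were 0.01 to 0.218. The main test therefore counts a shift shared by both Nseq428 libraries as spread. A replicate block gave 3135 called genes (1717 higher, 1418 lower). With the block 13 astrocyte markers and 15 proliferation genes were called higher, against 6 and 10 without it, and 18 potassium channel subunits, 14 sodium and calcium channel subunits, 10 interneuron markers and 9 GABA receptor subunits lower, against 9, 9, 5 and 6. Without the deep vehicle libraries 2 NRF2 targets, 2 astrocyte markers and 3 proliferation genes were called higher, and 2 adhesion genes, 2 potassium channel subunits, 1 sodium and calcium channel subunit and 0 interneuron markers lower. The medians of the respiratory chain lists changed sign with library totals alone, voom, a mean of 50 counts, without vehicle library Nseq428 and without pair Nseq428 (0.149, 0.154 and 0.174).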
